A study of Arabidopsis thaliana with 4 samples.

Results

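STABILIZED1 (STA1) is a protein of the U5 snRNP, the RNA-protein particle that joins U4/U6 to form the tri-snRNP of the spliceosome. In Arabidopsis the sta1 mutant is known for defects in pre-mRNA splicing, in the turnover of unstable transcripts, in stress tolerance and in gene silencing. The data described here are the difference between 1 sta1 library and 1 wild type library, locus by locus, on the scale log2(FPKM + 1). FPKM is a fragment count scaled to transcript length and library size. A locus entered when its mean over the 4 libraries of the study reached 1 FPKM, which 19240 of 34133 loci did. Of these, 18362 were protein-coding genes with an annotated transcript of at least 500 nt, called long protein-coding genes below.

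All libraries came from seedlings of Arabidopsis thaliana, accession C24, aged 10 days, grown on agar at 23 °C under 16 h of light and 8 h of dark. There was 1 library each for the wild type and for the mutants sta1, zop1 and prp31. ZOP1 is a zinc-finger protein linked to splicing and PRP31 is a U4/U6 snRNP protein. The labels give no allele, no number of plants and no batch, and no value has a replicate check, so every statement is about these libraries and no p-value is given. Implied totals were 49.2 M reads for the wild type and 44.3 M reads for sta1, and 40.7 and 54.6 for zop1 and prp31. Intervals printed with a fold are 95% exact binomial intervals on reads recovered from the FPKM steps and cover counting error only. Fewer cells of a type and less RNA per cell cannot be told apart in whole seedlings.

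The seedling label was checked against marker lists. Photosynthesis genes, of which RBCS1A is listed at 0 in every library, summed to 103053 FPKM in wild type and 113783 FPKM in sta1, and root markers to 1819 and 2019 FPKM. Flower and pollen markers summed to 141 and 135 FPKM, mostly through FLC, and seed storage and embryo markers to 62.6 and 54.9 FPKM, mostly through the epidermal factor ML1, with LEC1 and SESA1 listed at 0 in every library. STA1 itself (chr4:1516030-1520563, TAIR10.1) was at 14.1 FPKM in wild type, 18.9 in sta1, 15.6 in zop1 and 15.5 in prp31. Its transcript was thus highest in the sta1 library, so its level does not check the label. PRP31 stood at 23.2 FPKM in wild type and 23.7 FPKM in sta1, and ZOP1 at 14.1 and 15.02 FPKM.

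Loci that differed by at least 1 on this scale are called higher or lower, the 2-fold rule. It was met by 381 loci (1.98%) in either direction: 152 loci (0.790%) were higher and 229 (1.19%) lower in sta1. Among long protein-coding genes 74 (0.403%) were higher and 159 (0.866%) lower. These percentages are given as the background for the counts of gene groups below. The lists and their members were chosen with earlier results of these data known. Their counts therefore describe the lists and are no test of them. The median difference over long protein-coding genes was -0.06, with quartiles of -0.20 and 0.09, and 39.6% of them lay above the wild type. The other 878 loci are short or not protein-coding. They gave 78 higher and 70 lower loci, many from few reads. The 53 snoRNA loci, for instance, had a median of 8.00 reads in both libraries together. Near the rule, 8 long protein-coding genes were within 0.05 above the upper limit and 9 within 0.05 below it, and at the lower limit the counts were 29 inside and 25 outside. The library of sta1 was the highest of the 4 for 55 of the 74 higher genes and the lowest for 106 of the 159 lower ones. The rule selects genes on their sta1 value, which favours such counts, so they do not show that the differences are particular to sta1.

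**Figure D1:**
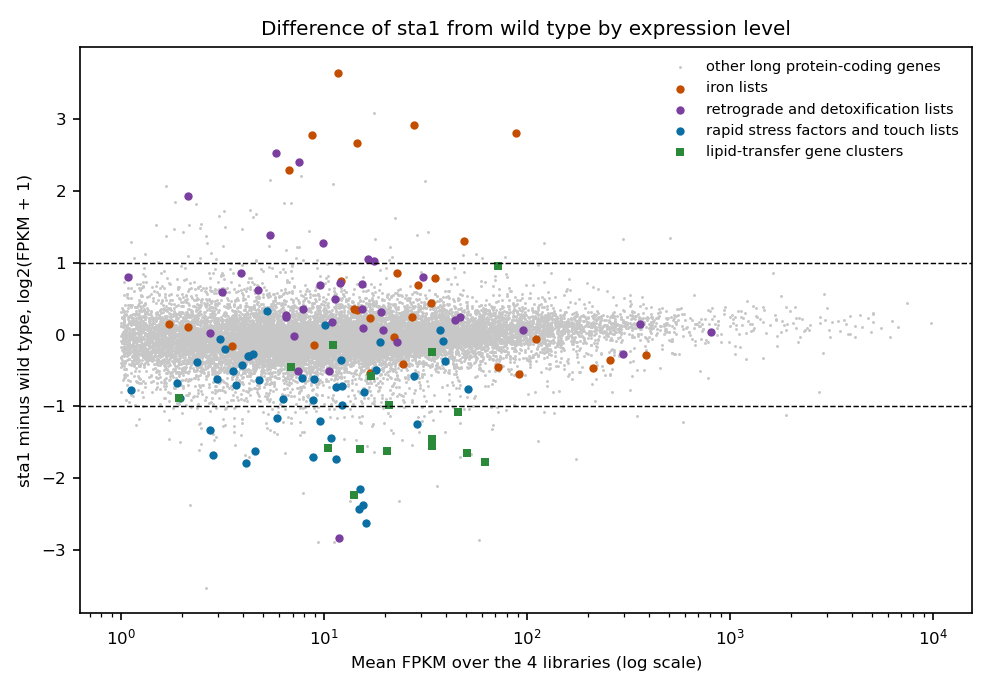
Difference of sta1 from wild type in log2(FPKM + 1) against the mean FPKM over the 4 libraries (log axis), 1 point per long protein-coding gene; dashed lines mark the 2-fold rule. Iron list genes past the rule all lie above the upper line, rapid stress, touch and lipid-transfer genes past it all lie below the lower one, and DIC2 is the 1 retrograde list member there.

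Among long protein-coding genes, several of those furthest above the wild type belong to the iron deficiency response. Plants short of iron are known to induce the bHLH factors of subgroup Ib and the IRON MAN (IMA) peptides, which act upstream of the root uptake genes. BHLH100 (chr2:17198037-17199454), one of these factors, was at 1.08 FPKM in wild type, 24.96 in sta1, 19.6 in zop1 and 1.299 in prp31, or 23.1-fold above the wild type in sta1. Its relatives BHLH38 and BHLH39, which lie side by side on chromosome 3, were 7.72-fold (6.43 to 9.34) and 6.88-fold (5.24 to 9.17) above the wild type. BHLH101, the fourth of the subgroup, was below the level needed to enter, at 0.196 FPKM in wild type, 1.61 in sta1, 1.52 in zop1 and 0.177 in prp31. The 3 peptide genes were higher as well. IMA1 was at 1.45 FPKM in wild type, 15.9 in sta1, 14.5 in zop1 and 3.03 in prp31, IMA2 at 6.29 FPKM in wild type, 54.2 in sta1, 41.7 in zop1 and 9.53 in prp31, and IMA3 at 20.8 FPKM in wild type, 150.5 in sta1, 142 in zop1 and 40.1 in prp31. IMA1 and IMA2 are neighbours on chromosome 1 and near copies, so their reads may be shared. In all 6 of these genes that entered, sta1 was the highest library, zop1 came next and prp31 was much nearer to the wild type.

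Downstream of these regulators the picture was mixed. OPT3, the transporter that loads iron into the phloem, was at 24.99 FPKM in wild type, 62.7 in sta1, 72.99 in zop1 and 35.2 in prp31, and was the 1 transport gene past the rule. BTS, a ubiquitin ligase that restrains the response, was at 15.6 FPKM in wild type, 29.1 in sta1, 30.9 in zop1 and 16.5 in prp31, and PYE, a bHLH repressor, at 8.94 FPKM in wild type, 15.7 in sta1, 14.8 in zop1 and 9.54 in prp31; both differences (0.86 and 0.75) are under the rule. NAS4, a nicotianamine synthase, was at 23.9 FPKM in wild type and 41.9 FPKM in sta1, and the ferric reductase FRO3 at 21.4 and 35.3 FPKM. The genes of root iron uptake lay on the other side. FIT, the factor that drives them, was at 27.8 FPKM in wild type, 20.6 in sta1, 24.7 in zop1 and 25.2 in prp31. IRT1, the iron transporter of the root surface, was at 467 FPKM in wild type and 383 FPKM in sta1, and FRO2, the ferric reductase that works with it, at 97.2 and 71.02 FPKM. CYP82C4, a P450 of coumarin synthesis, was at 131 and 88.7 FPKM.

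Of 11 iron deficiency transcription factors and regulators that entered, 3 were higher and none lower, with a median of 0.34. Of 18 genes for peptides, uptake and transport, 4 were higher and none lower, with a median of 0.24. Genes for iron storage had a median of -0.33, with 6 of 8 below the wild type and none past the rule. The vacuolar iron transporter-like genes VTL5 and VTL1 were at 23.1 and 4.38 FPKM in wild type and 12.03 and 1.92 FPKM in sta1. The ferritin FER1 was at 235 and 202 FPKM. Several genes outside the lists went with the regulators. The uncharacterised AT2G14247 was at 2.93 FPKM in wild type, 32.2 in sta1, 32.2 in zop1 and 3.36 in prp31, ORG1 at 16.5 FPKM in wild type, 46.2 in sta1, 48.3 in zop1 and 19.3 in prp31, and HO4, a heme oxygenase, at 2.75 FPKM in wild type, 12.3 in sta1, 8.69 in zop1 and 3.72 in prp31.

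**Figure D2:**
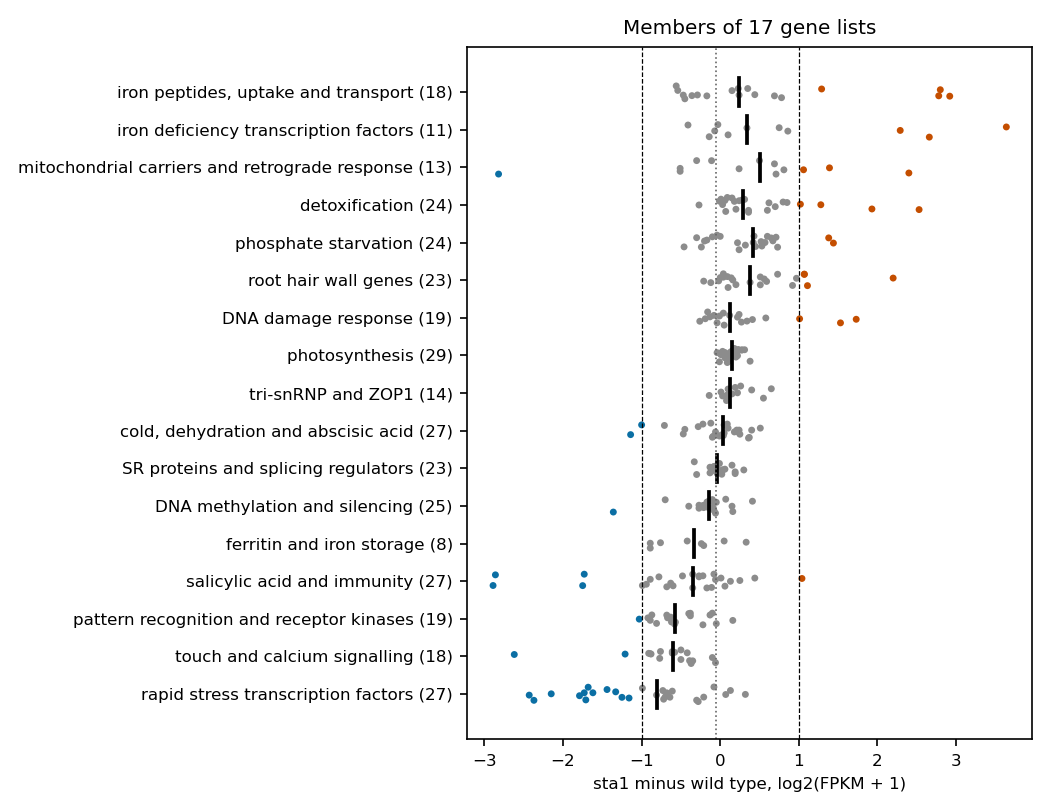
Difference of sta1 from wild type for each member that entered of 17 gene lists (number in brackets); 1 point per gene, orange past the 2-fold rule upward, blue downward, black bar at the list median, dotted line at the median of all loci. Medians run from 0.50 for the mitochondrial carrier and retrograde list to -0.81 for rapid stress transcription factors.

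Of 13 genes of mitochondrial carriers and the retrograde response that entered, 8 lay above the wild type and 5 below it. When mitochondria are disturbed, NAC factors held at the endoplasmic reticulum are released. They induce nuclear genes whose promoters carry the mitochondrial dysfunction motif. The form of the motif used here was CTTG and CAAG with 5 bases between them, and variants of it were not searched. Of these 13 genes 3 were higher and 1 was lower, and the median was 0.50. UGT74E2, a glucosyltransferase for the auxin precursor indole butyric acid, was at 2.26 FPKM in wild type, 16.2 in sta1, 6.42 in zop1 and 5.16 in prp31, 7.17-fold (6.02 to 8.597) above the wild type. UPOX (AT2G21640), a mitochondrial protein used as a marker of oxidative stress, was at 2.75 FPKM in wild type, 8.84 in sta1, 5.41 in zop1 and 4.64 in prp31, 3.21-fold (2.27 to 4.61) above. AT5G51440, a mitochondrial small heat shock protein gene, was at 10.7 FPKM in wild type, 23.3 in sta1, 16.4 in zop1 and 15.7 in prp31. In each of the 3, sta1 was the highest library and the wild type the lowest. AOX1A, the alternative oxidase most often used to follow this response, was at 22.8 FPKM in wild type, 40.6 in sta1, 33.5 in zop1 and 25.8 in prp31, a difference of 0.81 that is under the rule. NDB2, an external NAD(P)H dehydrogenase, was at 7.47 and 12.7 FPKM, and NAC013, one of the NAC factors, at 9.25 and 15.8 FPKM in wild type and sta1.

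The motif was searched on both strands in the 300 bases before the annotated start of each long protein-coding gene, in the Columbia reference (TAIR10.1, RefSeq) and not in C24 sequence. It was present in 9 of the 74 promoters of higher genes (12.2%), in 1 of the 159 promoters of lower genes (0.6%) and in 107 of all 18361 (0.6%). In the list of mitochondrial carriers and the retrograde response it was in 2 of 13 promoters (15.4%). Of the higher genes of that list UPOX has this form in the window. In UGT74E2 and AT5G51440 this form was not found there, and variants or sites further out were not searched. Every match is also a match of the looser motif, CTT and AAG with 7 bases between them, bound by SOG1, the regulator of the DNA damage response. The looser motif was in 23.0% of the higher, 11.9% of the lower and 10.5% of all promoters. Its 17 higher promoters include the 9 with the mitochondrial dysfunction motif, so its share there does not stand apart from theirs. Seen from the promoters, the 107 genes with the mitochondrial dysfunction motif had a median difference of 0.03 in sta1, with quartiles of -0.17 and 0.29. Of them 61 (57.0%) lay above the wild type, 9 (8.41%) were higher and 1 (0.935%) lower by the rule. The stretches that hold it are printed for the 9 higher genes, with the motif in capitals and 20 bases on each side, read 5′ to 3′ on the strand of the gene.
DTX3 (chr2:1339592-1339703, - strand): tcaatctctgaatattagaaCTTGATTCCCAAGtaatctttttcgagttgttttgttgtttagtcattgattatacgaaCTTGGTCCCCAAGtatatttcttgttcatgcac
AT5G53230 (chr5:21598706-21598758, + strand): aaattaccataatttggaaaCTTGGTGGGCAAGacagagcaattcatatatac
AT4G12735 (chr4:7494311-7494363, - strand): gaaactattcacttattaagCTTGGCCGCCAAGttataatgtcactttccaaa
NAC044 (chr3:228990-229042, + strand): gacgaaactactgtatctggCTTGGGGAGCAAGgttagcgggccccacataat
AT1G17960 (chr1:6183840-6183892, - strand): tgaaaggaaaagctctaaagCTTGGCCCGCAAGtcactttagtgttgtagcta
HSP17.6II (chr5:3883299-3883351, - strand): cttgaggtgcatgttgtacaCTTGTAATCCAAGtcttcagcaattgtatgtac
UPOX (chr2:9254307-9254359, + strand): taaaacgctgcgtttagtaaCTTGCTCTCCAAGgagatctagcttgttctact
AT4G08555 (chr4:5447910-5447962, + strand): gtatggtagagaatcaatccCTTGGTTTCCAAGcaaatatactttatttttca
AT5G24640 (chr5:8436252-8436304, + strand): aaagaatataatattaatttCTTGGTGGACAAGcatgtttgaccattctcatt
The 9 genes are of several kinds. DTX3 (AT2G04050), a carrier of the MATE family that exports small molecules, holds 2 copies of the motif and was at 1.08 FPKM in wild type, 10.99 in sta1, 7.83 in zop1 and 3.301 in prp31, 10.2-fold (7.899 to 13.4) above the wild type. AT5G53230, which encodes a protein with a DUF295 domain, was at 0.1396 FPKM in wild type, 3.77 in sta1, 1.27 in zop1 and 1.47 in prp31. NAC044 is a transcription factor of the DNA damage response and HSP17.6II a cytosolic small heat shock protein. AT1G17960 is annotated as a threonyl-tRNA synthetase, at 1.13 FPKM in wild type, 5.72 in sta1, 2.02 in zop1 and 3.25 in prp31. AT4G12735, AT4G08555 and AT5G24640 are uncharacterised, and AT5G24640 rests on 3 reads in the wild type and 8 in sta1, so that its counting interval (0.711 to 17.3) includes no change.

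Detoxification genes, which encode enzymes and carriers that conjugate and remove foreign or reactive compounds, lay mostly above the wild type. Of 24 that entered, 22 lay above the wild type and 4 were higher by the rule, with a median of 0.29. The sta1 library was the highest of the 4 for 17 of them. In zop1 and prp31, which share the wild type library with sta1, the medians were -0.14 and 0.02. Set directly against the zop1 library, 21 of the 24 were higher in sta1, with a median difference of 0.49. DTX1, the neighbour and close copy of DTX3, was at 0.425 FPKM in wild type, 4.43 in sta1, 2.06 in zop1 and 1.62 in prp31. GSTU25, a glutathione transferase of the tau class, was at 5.79 FPKM in wild type, 15.4 in sta1, 9.64 in zop1 and 8.51 in prp31, 2.67-fold (2.24 to 3.18) above the wild type. UGT74F2, a glucosyltransferase of salicylic acid, was at 11.96 FPKM in wild type, 25.3 in sta1, 15.5 in zop1 and 17.5 in prp31. Under the rule, but highest in sta1, were CYP81D8 at 2.604 and 5.504 FPKM, GSTU24 at 13.9 and 23.2 FPKM and the transporter ABCG40 at 0.7605 and 2.07 FPKM in wild type and sta1. The whole glutathione transferase family did not share the shift, with a median of 0.03 over 43 genes, 1 of them higher and 1 lower. The as-1 core, TGACG, searched on both strands, was in 58.3% of the detoxification promoters, 35.1% of those of all higher genes, 27.7% of those of lower genes and 22.2% of all promoters. Its share varied widely between lists and was not high only where genes rose. It was 47.4% for pattern recognition and receptor kinases (median difference -0.58 in sta1), 42.9% for the circadian clock (-0.01) and 10.5% for root markers (-0.02). The lower transferase, GSTF2, is abundant, at 829 FPKM in wild type, 356 in sta1, 346 in zop1 and 829 in prp31.

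Genes of the DNA damage response had a median of 0.12 over 19 members, with 3 higher and none lower. NAC044 was at 1.07 FPKM in wild type, 5.87 in sta1, 6.91 in zop1 and 3.51 in prp31, 5.49-fold (4.13 to 7.42) above the wild type. SMR7 (AT3G27630), an inhibitor of cyclin-dependent kinases, was at 0.793 FPKM in wild type, 4.18 in sta1, 2.64 in zop1 and 2.33 in prp31. Its 5.27-fold difference (1.75 to 21.3) rests on 4 reads in the wild type and 19 in sta1. GMI1, a protein of homologous recombination, was at 1.16 FPKM in wild type, 3.36 in sta1, 2.86 in zop1 and 2.28 in prp31. For all 3 the wild type was the lowest library. SOG1 itself was at 4.297 FPKM in wild type and 3.43 FPKM in sta1. CYCB1;1, a mitotic cyclin induced by damage, was at 2.48 and 4.21 FPKM, which is under the rule.

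Phosphate starvation genes had a median of 0.42 over 24 members, with 2 higher and none lower. Both higher genes encode phosphatases that free phosphate. PEPC1 was at 2.82 FPKM in wild type, 9.35 in sta1, 8.33 in zop1 and 13.3 in prp31, and PS2 at 11.5 FPKM in wild type, 31.6 in sta1, 29.01 in zop1 and 42.9 in prp31. The prp31 library, not sta1, was the highest for both. SPX1, a phosphate sensor, was at 24.9 FPKM in wild type, 41.3 in sta1, 44.9 in zop1 and 69.9 in prp31, SQD2, of sulfolipid synthesis, at 39.2 FPKM in wild type, 65.9 in sta1, 58.1 in zop1 and 84.3 in prp31, and the non-coding IPS1 at 22.8 FPKM in wild type, 33.4 in sta1, 30.7 in zop1 and 57.1 in prp31. The phosphate transporters PHT1;1 and PHT1;4 went the other way, at 52.4 and 17.1 FPKM in wild type and 42.3 and 12.1 FPKM in sta1. The motif bound by the phosphate regulator PHR1 (P1BS, GNATATNC, both strands) was in 33.3% of the 24 promoters and in 6.6% of all. It was in 9.5% of the promoters of higher genes and 10.7% of those of lower genes. All genes with it had a median difference of -0.06 in sta1. In PS2 the match, in capitals, lies in this stretch.
PS2 (chr1:27466538-27466585, - strand): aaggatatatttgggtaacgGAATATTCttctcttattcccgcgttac
In PEPC1 these letters were not found in the window.

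Sulfur and nitrogen genes differed in both directions. GGCT2;1 (AT5G26220), which breaks down glutathione, was at 1.28 FPKM in wild type, 6.54 in sta1, 0.743 in zop1 and 4.28 in prp31, 5.09-fold (3.69 to 7.17) above the wild type. BGLU28, a glucosidase known to respond to sulfur deficiency, was at 1.48 FPKM in wild type, 4.44 in sta1, 0.3098 in zop1 and 4.902 in prp31. ASN1, an asparagine synthetase known to respond to darkness and low sugar, was at 4.89 FPKM in wild type, 12.3 in sta1, 3.71 in zop1 and 5.02 in prp31, with sta1 alone high. SULTR1;2, the main sulfate uptake transporter of roots, was at 88.1 FPKM in wild type, 41.2 in sta1, 64.3 in zop1 and 96.1 in prp31, and was lowest in sta1. Of the 28 listed genes that entered, these 3 were higher and SULTR1;2 was lower, with a median of -0.06. Among carriers outside the list, the ammonium transporter AMT1;3 was at 42.3 FPKM in wild type, 18.5 in sta1, 18.1 in zop1 and 37.5 in prp31, the urea transporter DUR3 at 7.804 FPKM in wild type, 3.11 in sta1, 3.45 in zop1 and 6.77 in prp31, and the amino acid transporter LHT1 at 18.01 FPKM in wild type, 7.48 in sta1, 12.95 in zop1 and 7.98 in prp31; all 3 were lower by the rule.

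Wall protein genes of root hairs were another higher group. This list was drawn up after the values had been seen, so its counts only describe it. Of 23 genes 20 lay above the wild type and 4 were higher, with a median of 0.38 in sta1, 0.60 in zop1 and -0.02 in prp31. EXPA16, an expansin, which loosens walls, was at 2.19 FPKM in wild type, 13.7 in sta1, 12.2 in zop1 and 2.79 in prp31, 6.25-fold (5.03 to 7.84) above the wild type. The extensins EXT6, EXT12 and AT5G06630, which are repetitive wall proteins with near copies, were at 38.3, 46.3 and 34.7 FPKM in wild type and 81.3, 98.5 and 76.4 FPKM in sta1. Other genes of the list were near the wild type, such as the root hair factor RHD6 (1.65 and 1.43 FPKM) and the expansin EXPA7 (4.71 and 5.06 FPKM). Expansins as a family had a median of -0.06 over 21 genes, and EXPA16 was the 1 past the rule.

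Small shifts ran through very large gene groups. Of 29 photosynthesis genes that entered, 27 lay above the wild type, none was past the rule, and the median was 0.15, against -0.17 in zop1 and 0.06 in prp31. The sta1 library was the highest of the 4 for 25. The largest difference was in PRK, the phosphoribulokinase of the Calvin cycle, at 1703 FPKM in wild type, 2221 in sta1, 1754 in zop1 and 1874 in prp31. Of 325 ribosomal protein genes 85.8% lay above the wild type, with a median of 0.13 and none past the rule. These groups are abundant, and the difference moved with abundance over all long protein-coding genes. The median was -0.10 at a mean of 5 to 10 FPKM, 0.03 at 50 to 100 FPKM, 0.09 at 100 to 500 FPKM and 0.14 above 500 FPKM. The part of abundance in the shifts of both groups was not tested. Early light-induced proteins, which bind pigments under light stress, were higher by the rule: ELIP1 was at 12.04 FPKM in wild type, 26.5 in sta1, 30.8 in zop1 and 17.4 in prp31 and ELIP2 at 28.3 FPKM in wild type, 61.9 in sta1, 54.4 in zop1 and 48.7 in prp31. OEP6, an outer envelope protein of the chloroplast, was at 283 FPKM in wild type, 719 in sta1, 538 in zop1 and 482 in prp31, and was highest in sta1.

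Transcription factors that are induced within minutes of stress formed the group furthest below the wild type. They include ERF, ZAT, WRKY and CCCH zinc-finger genes and are known to have short-lived transcripts and few introns. Of 27 that entered 12 were lower and none higher, and 24 lay below the wild type, with a median of -0.81. In zop1 and prp31, with the same wild type library, the medians were -0.88 and -0.41. ZAT10, a repressor with an EAR motif, was at 33.9 FPKM in wild type, 5.76 in sta1, 3.51 in zop1 and 19.2 in prp31, ERF104 at 29.9 FPKM in wild type, 5.98 in sta1, 5.67 in zop1 and 18.7 in prp31 and ERF105 (AT5G51190) at 31.4 FPKM in wild type, 5.02 in sta1, 3.401 in zop1 and 19.5 in prp31. ERF6, ERF5 and ERF11 were 4.98-fold (3.78 to 6.65), 3.76-fold (3.22 to 4.41) and 4.05-fold (3.13 to 5.29) below the wild type. WRKY33, which controls camalexin synthesis, was at 44.4 FPKM in wild type, 18.1 in sta1, 19.7 in zop1 and 32.98 in prp31, and WRKY40 at 4.84 FPKM in wild type, 1.32 in sta1, 1.17 in zop1 and 3.64 in prp31. SZF1, a zinc-finger protein of salt tolerance, was at 22.5 FPKM in wild type, 6.06 in sta1, 4.68 in zop1 and 12.8 in prp31, and ORA47, a regulator of jasmonate synthesis, at 6.94 FPKM in wild type, 1.48 in sta1, 0.895 in zop1 and 2.002 in prp31. AZF3, TZF7 and DREB26 were the 3 members above the wild type, by 0.32, 0.07 and 0.13. In the order of levels, wild type was followed by prp31 and then by sta1 and zop1 for all of the genes named below the wild type in this paragraph.

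By family, 60 genes annotated as AP2/ERF or ethylene-responsive had a median of -0.31, beside -0.06 over all long protein-coding genes, and 10 (16.7%) were lower and none higher. Of these 10, AT5G44350 is annotated as an ethylene-responsive nuclear protein-like protein, and CRF12 has no recovered reads. The 51 WRKY factors had a median of -0.16 and 2 lower members, and the 48 C2H2 zinc-finger genes a median of -0.08 with 1 higher and 1 lower. Among 94 bHLH factors the median was -0.15, 1 was lower, and the 4 higher members were BHLH100, BHLH38, BHLH39 and AT1G10585, the last at 1.28 FPKM in wild type, 4.901 in sta1, 1.68 in zop1 and 2.5997 in prp31.

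Genes of touch and calcium signalling were all below the wild type, 18 of 18, with a median of -0.60 and 2 past the rule. CAF1a, a deadenylase that removes poly(A) tails, was at 34.5 FPKM in wild type, 4.78 in sta1, 4.26 in zop1 and 21.003 in prp31, 7.22-fold (6.17 to 8.49) below the wild type. MKK9, a kinase of the ethylene and camalexin pathways, was at 15.7 FPKM in wild type, 6.23 in sta1, 5.63 in zop1 and 10.8 in prp31. TCH4, a xyloglucan endotransglucosylase induced by touch, was at 12.3 and 6.03 FPKM, and the calmodulin-like TCH2 at 35.6 and 23.4 FPKM in wild type and sta1. The EF-hand gene AT4G27280 was at 67.2 FPKM in wild type, 14.9 in sta1, 15.2 in zop1 and 46.2 in prp31. DIC2, a mitochondrial dicarboxylate carrier that is known to respond to the same stimuli, was at 28.7 FPKM in wild type, 3.196 in sta1, 2.84 in zop1 and 12.3 in prp31, 8.99-fold (7.55 to 10.8) below the wild type. It was the 1 lower gene of the retrograde list. Its relative DIC1 was at 12.7 and 8.62 FPKM. ACS6, which makes the ethylene precursor, was at 24.8 FPKM in wild type, 8.36 in sta1, 7.46 in zop1 and 16.95 in prp31.

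Several marker genes of the salicylic acid pathway were lower in sta1. Of 27 listed 4 were lower and 1 was higher, and 21 lay below the wild type, with a median of -0.35. PR1, the classic marker of this pathway, was at 125 FPKM in wild type, 16.4 in sta1, 56.9 in zop1 and 34.3 in prp31, and PR2 (BGL2), a glucanase that acts on fungal walls, at 16.9 FPKM in wild type, 4.34 in sta1, 11.8 in zop1 and 14.5 in prp31, 3.903-fold (3.34 to 4.57) below the wild type. PCR1, a small membrane protein of cadmium resistance, was at 26.3 FPKM in wild type, 2.69 in sta1, 5.698 in zop1 and 9.97 in prp31, and LURP1, needed for defence against a downy mildew, at 215 FPKM in wild type, 64.2 in sta1, 100.4 in zop1 and 322 in prp31. The sta1 library was the lowest of the 4 for each of these genes. PRB1, a relative of PR1 beside it on chromosome 2, was at 4.47 FPKM in wild type, 0.975 in sta1, 4.66 in zop1 and 1.36 in prp31. The genes that make salicylic acid stood apart from them, with ICS1 at 19.2 FPKM in wild type, 20.1 in sta1, 22.8 in zop1 and 22.5 in prp31 and EDS5 at 7.12 and 6.65 FPKM in wild type and sta1. The higher gene, DLO1 (AT4G10500), hydroxylates salicylic acid and was at 6.01 FPKM in wild type, 13.4 in sta1, 10.03 in zop1 and 7.39 in prp31.

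Of 19 listed genes of pattern recognition and receptor kinases 18 lay below the wild type, 1 was lower by the rule, and the median was -0.58, against -0.35 in zop1 and 0.01 in prp31. The median in sta1 was -0.24 with a pseudocount of 5 FPKM. The sta1 library was the lowest for 13. CRK4, a cysteine-rich receptor kinase, was at 4.403 FPKM in wild type, 1.64 in sta1, 2.15 in zop1 and 4.82 in prp31. FLS2, the receptor of bacterial flagellin, was at 3.04 FPKM in wild type, 1.22 in sta1, 2.17 in zop1 and 2.66 in prp31, and SOBIR1, an adaptor of receptor-like proteins, at 34.7 FPKM in wild type, 19.4 in sta1, 22.1 in zop1 and 34.6 in prp31; neither met the rule. RBOHD, the oxidase that makes the oxidative burst, was the member above the wild type, at 16.5 and 18.6 FPKM. By family, 24 cysteine-rich receptor kinases had a median of -0.36 with 2 lower, and 113 leucine-rich repeat kinases a median of -0.13 with 2 lower. Lysin-motif kinase LYK5, a chitin receptor, was at 8.25 FPKM in wild type, 2.93 in sta1, 3.53 in zop1 and 6.06 in prp31. CYP71A13, of camalexin synthesis, was an exception among defence genes, at 2.23 FPKM in wild type, 9.04 in sta1, 3.37 in zop1 and 3.23 in prp31, 4.05-fold (3.38 to 4.86) above the wild type.

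**Figure D3:**
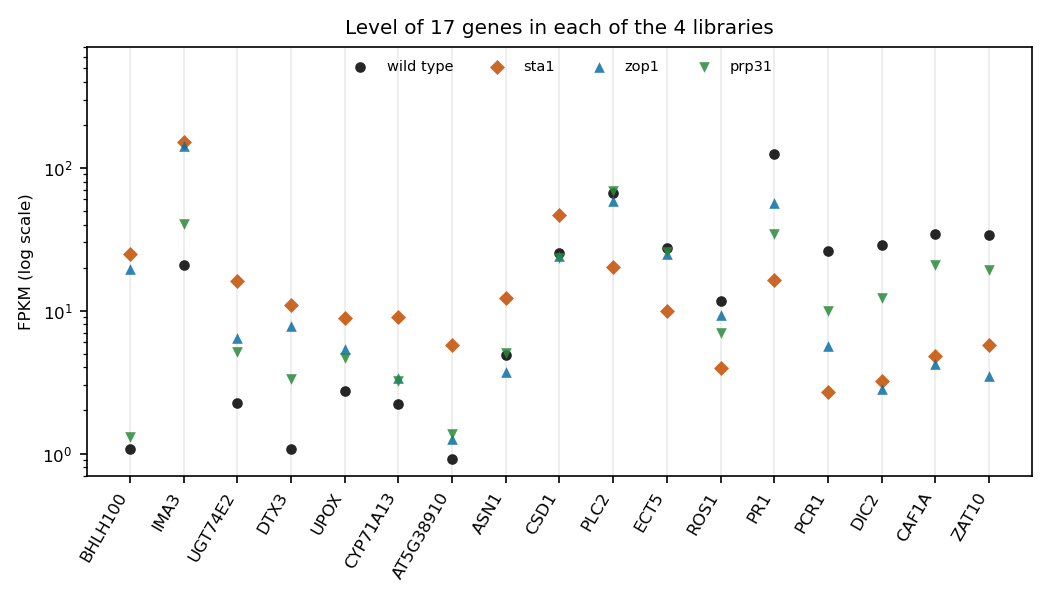
FPKM (log axis) of 17 named genes in the wild type, sta1, zop1 and prp31 libraries, 1 point per library. The sta1 point stands alone above the other 3 for CYP71A13, AT5G38910, ASN1 and CSD1 and alone below them for PLC2 and ECT5, while for BHLH100, IMA3, DIC2, CAF1A and ZAT10 it lies nearer to zop1 than to the wild type.

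Lipid-transfer proteins, small secreted proteins that bind lipids and are often clustered in tandem, were the family with the most lower genes. Of 66 that entered 11 (16.7%) were lower and none higher, and 53 lay below the wild type, with a median of -0.33. The medians in zop1 and prp31 were -0.06 and -0.15. In the cluster of AT4G22460 to AT4G22520 on chromosome 4, 6 neighbouring genes were low together. AT4G22485 was at 47.2 FPKM in wild type, 15.4 in sta1, 55.3 in zop1 and 18.5 in prp31, AT4G22490 at 75.9 FPKM in wild type, 23.4 in sta1, 71.3 in zop1 and 31.2 in prp31, and AT4G22505 at 89.1 FPKM in wild type, 25.4 in sta1, 96.5 in zop1 and 36.6 in prp31. AT4G22517 was at 44.7 FPKM in wild type, 15.7 in sta1, 56.4 in zop1 and 19.1 in prp31. In these genes sta1 and prp31 lay low and the wild type and zop1 high. At the edge of the cluster, AT4G22460 was at 12.6 FPKM in wild type, 11.3 in sta1, 8.82 in zop1 and 11.6 in prp31. In a second cluster on chromosome 4 the order was another. AIR1, named for its induction by auxin in roots, was at 26.5 FPKM in wild type, 4.86 in sta1, 8.03 in zop1 and 16.8 in prp31, 5.44-fold (4.42 to 6.75) below the wild type, and its neighbour AT4G12545 at 22.8 FPKM in wild type, 6.93 in sta1, 10.8 in zop1 and 19.5 in prp31. EARLI1 was at 60.9 FPKM in wild type, 28.2 in sta1, 33.9 in zop1 and 59.8 in prp31, while AZI1 in the same cluster, which is needed for the priming of systemic immunity, was at 49.5 FPKM in wild type, 96.7 in sta1, 34.96 in zop1 and 108 in prp31, close to the upper limit of the rule. On chromosome 5, AT5G46890 was at 26.3 FPKM in wild type, 7.899 in sta1, 26.1 in zop1 and 21.3 in prp31 and AT5G46900 at 15.7 FPKM in wild type, 4.58 in sta1, 11.2 in zop1 and 10.5 in prp31, with sta1 alone low. Neighbours in such clusters are close copies, and how their reads were divided follows the authors' processing.

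**Figure D4:**
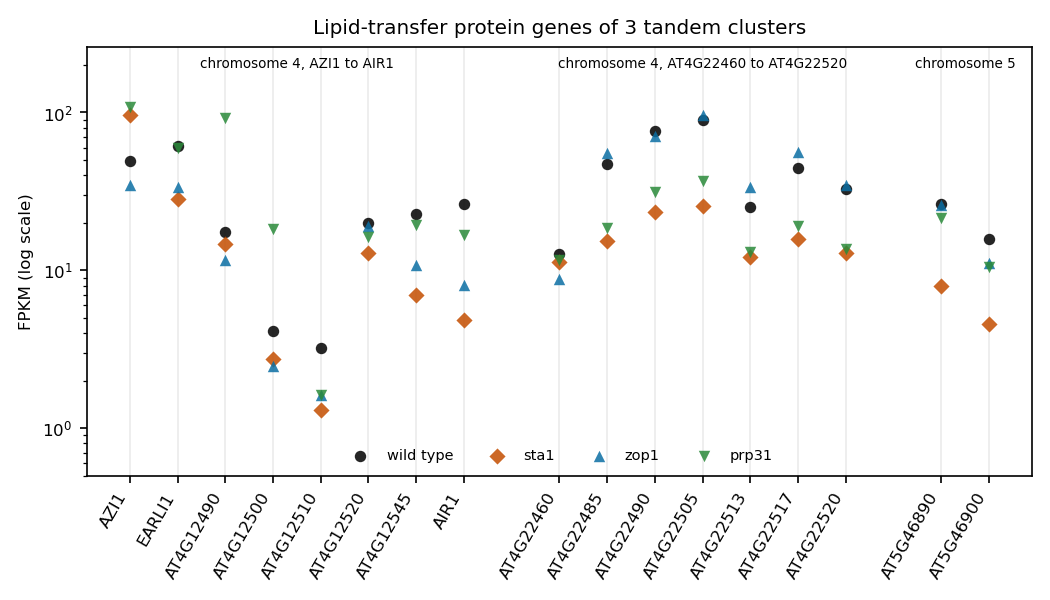
FPKM (log axis) of the lipid-transfer protein genes that entered in 3 tandem clusters, in chromosome order, in the 4 libraries. In the middle cluster sta1 and prp31 lie together below the wild type and zop1 for 6 genes, and in the right cluster sta1 lies alone below the other 3.

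Neighbouring genes also recurred elsewhere. Along the chromosomes, 4 pairs of adjacent long protein-coding genes were both higher and 9 pairs both lower, with 8 and 16 genes in such pairs. Besides those already named they include FRO4 and FRO5, AT5G44568 and AT5G44570, and AT1G67860 and AT1G67865, all lower. AT2G30766 (IMA3) and CYP71A13, both higher, overlap by their coordinates on chromosome 2. Whether counting used strand is not given in the sources used here, so how reads in the overlap were divided is unknown. In zop1, CYP71A13 differed from the wild type by 0.44 and IMA3 (AT2G30766) by 2.71.

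Among the 15 largest differences in each direction, several genes are in none of the groups above. AT2G18193, an AAA-type ATPase by annotation, was at 1.46 FPKM in wild type, 9.85 in sta1, 7.18 in zop1 and 3.27 in prp31. AT2G41730, annotated as a calcium-binding site protein, was at 4.499 FPKM in wild type, 22.6 in sta1, 11.3 in zop1 and 6.09 in prp31, and the uncharacterised AT5G05250 at 11.1 FPKM in wild type, 52.2 in sta1, 44.96 in zop1 and 17.9 in prp31. In these 3 sta1 was the highest library and the wild type the lowest. On the lower side, AT1G14250, a nucleoside phosphatase of the GDA1/CD39 family, was at 24.6 FPKM in wild type, 4.14 in sta1, 6.199 in zop1 and 19.1 in prp31. AT5G45630, annotated as a senescence regulator, was at 19.1 FPKM in wild type, 3.34 in sta1, 2.93 in zop1 and 6.19 in prp31. RTFL13, a small peptide of the ROTUNDIFOLIA family, had 10.5 FPKM in wild type and is given as 0 in all 3 mutants, with no recovered reads, so it is not firm.

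The levels of 9 genes in sta1 were above each of the other 3 libraries by 1 or more, and those of 13 genes were below each by 1 or more. AT5G38910, a cupin of the germin type, led the first group at 0.918 FPKM in wild type, 5.77 in sta1, 1.27 in zop1 and 1.38 in prp31. HTA4, a histone H2A, was at 5.67 FPKM in wild type, 12.9 in sta1, 5.18 in zop1 and 5.35 in prp31, and AACT1, annotated as an anthocyanin acyltransferase, at 0.826 FPKM in wild type, 4.03 in sta1, 0.9999 in zop1 and 1.44 in prp31. UGT74E2, CYP71A13, ASN1, AT4G12735, AT5G24640 and the uncharacterised AT2G38823 complete it. Next, just under a margin of 1, was AT2G32020, an acyl-CoA N-acyltransferase by annotation, at 3.03 FPKM in wild type, 7.04 in sta1, 2.54 in zop1 and 2.62 in prp31. Of the second group, PLC2 (chr3:2582362-2585898), the main phosphoinositide-specific phospholipase C, was at 66.2 FPKM in wild type, 20.2 in sta1, 58.1 in zop1 and 68.9 in prp31, 3.28-fold below the wild type. ECT5 (chr3:4180154-4183975), of the family that reads methylated adenosine in RNA, was at 27.3 FPKM in wild type, 9.998 in sta1, 24.9 in zop1 and 25.7 in prp31. Both genes have introns, 8 and 6, and FPKM do not show whether the transcripts were whole. TAT3, a tyrosine aminotransferase, was at 4.13 FPKM in wild type, 1.13 in sta1, 3.56 in zop1 and 3.96 in prp31. AT3G05727, annotated as an SLR1-binding protein, was at 34.6 FPKM in wild type, 6.17 in sta1, 36.7 in zop1 and 16.1 in prp31. AT3G25011 was listed at 0 in sta1 and had 1 read in the wild type, and CRF12 was given as 0.000285 FPKM in sta1 and 2.04 FPKM in wild type with no recovered reads, so neither is firm. The others were PR1, PR2, AT5G46890, AT5G46900, AT1G67865, AT2G36690 and FRO5.

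ROS1 (DML1), a DNA glycosylase that removes 5-methylcytosine and keeps genes from being silenced, was at 11.7 FPKM in wild type, 3.95 in sta1, 9.38 in zop1 and 6.92 in prp31, 2.96-fold (2.73 to 3.21) below the wild type. It was the 1 gene past the rule among 25 of DNA methylation and silencing, whose median was -0.14, with 21 below the wild type. AGO6, which binds small RNAs of this pathway, was at 3.32 FPKM in wild type, 1.66 in sta1, 3.12 in zop1 and 2.07 in prp31, and its lower level in sta1 is under the rule. The sta1 library was the lowest of the 4 for 12 members. Tri-snRNP genes leaned upward, 13 of 14 above the wild type with a median of 0.13 and none past the rule. The largest difference, 0.65, was in SNRNP200, a helicase relative, at 5.46 and 9.17 FPKM, and PRP3 was at 15.6 and 23.2 FPKM. Of 23 SR proteins and other splicing regulators none met the rule (median -0.04).

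Among the microRNA targets examined, the largest difference was in CSD1, a target of miR398. This microRNA is known to act against the copper superoxide dismutases CSD1 and CSD2 and their chaperone CCS when copper is short. CSD1, the cytosolic enzyme, was at 25.3 FPKM in wild type, 47.01 in sta1, 24.1 in zop1 and 23.5 in prp31, 1.86-fold above the wild type in sta1. CSD2, of the chloroplast, was at 39.2 FPKM in wild type, 64.7 in sta1, 30.9 in zop1 and 34.7 in prp31, 1.65-fold (1.4999 to 1.81) above. CCS was at 14.3 FPKM in wild type, 18.9 in sta1, 13.04 in zop1 and 14.1 in prp31. All 3 were highest in sta1, with the other libraries close together, and none met the rule. The precursor transcript of MIR398c was at 2.39 FPKM in wild type, 0.948 in sta1, 2.08 in zop1 and 2.52 in prp31, from 204 reads in the wild type and 73 in sta1. Other precursors lay on both sides of the wild type. MIR156c was at 3.64 FPKM in wild type, 1.49 in sta1, 1.73 in zop1 and 1.88 in prp31. MIR408 was at 1.46 FPKM in wild type, 0.584 in sta1, 1.27 in zop1 and 1.21 in prp31. It had 25 reads in the wild type and 9 in sta1. The differences of MIR398c, MIR156c and MIR408 (-0.80, -0.90 and -0.64) are under the rule. MIR834 and MIR850, which had more recovered reads, were not below the wild type in sta1, with differences of 0.24 and 0.03. Of 59 microRNA loci that entered, 19 (32.2%) were lower and 8 (13.6%) higher, many from few reads. The other genes of miR398 are not analysed here, and the mature microRNA was not measured. Over 59 measured microRNA targets, a list drawn up after values had been seen, the median was -0.08 and none met the rule. The mature miR398b and miR398c are identical, and are shown with the seed (bases 2 to 8) in capitals, written as DNA. Below it stand the sites in the 3 transcripts that pair best with it without gaps, with bases that form Watson-Crick pairs in capitals. Pairs of G with U were not counted.
miR398c-3p (chr5:4694778-4694798, + strand): tGTGTTCTcaggtcacccctg
CSD1 site (chr1:2827177-2827685, + strand): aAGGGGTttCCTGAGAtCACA
CSD2 site (chr2:12015572-12015592, + strand): tgcGGGTGACCTGgGAAacat
CCS site (chr1:4267521-4267541, - strand): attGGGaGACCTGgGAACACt
Of 21 bases 17 form Watson-Crick pairs in CSD1, 13 in CSD2 and 15 in CCS. The site of CSD1 spans an intron in the genome.

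Of 19 copper genes, a list drawn up after values had been seen, 2 were lower and none higher, with a median of -0.09. FRO4, a copper reductase of the root surface, was at 93.3 FPKM in wild type, 44.3 in sta1, 79.04 in zop1 and 99.8 in prp31, and FRO5 beside it at 9.997 FPKM in wild type, 4.27 in sta1, 9.95 in zop1 and 12.3 in prp31; both were lower by the rule. ZIP2, a metal transporter, was at 55.4 FPKM in wild type, 30.2 in sta1, 39.9 in zop1 and 62.3 in prp31. COPT2, a copper uptake transporter, was at 154 FPKM in wild type and 130.4 FPKM in sta1, and FSD1, the iron superoxide dismutase that replaces the copper enzymes, at 1278 and 1010 FPKM. SPL7, the copper-sensing regulator, was at 16.1 and 16.4 FPKM.

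Hormone and water stress genes gave few calls. The cold, dehydration and abscisic acid list had a median of 0.04 over 27 genes, with RAB18, a dehydrin (86.2 and 42.6 FPKM), and CYP707A3, which breaks down abscisic acid (10.5 and 4.22 FPKM), lower. Jasmonate genes had a median of 0.10 over 20, with the defensin PDF1.2 higher, from 1 read in the wild type and 17 reads in sta1. Of 10 defensin-like genes 4 were higher and none lower, the most abundant being AT3G05730 at 144 FPKM in wild type, 363 in sta1, 367 in zop1 and 319 in prp31. PDF1.2 is also among the 4. AT1G13608 rests on 2 reads in the wild type and 9 in sta1, with a counting interval of 1.03 to 47.5. For AT1G34047 and AT3G05730 no reads were recovered. Auxin genes had a median of -0.19 over 21, and IAA29 (1.73 and 0.431 FPKM) differed most. Aquaporins had a median of -0.08 over 18, with the vacuolar TIP2;3 lower, at 5.49 FPKM in wild type, 1.46 in sta1, 6.15 in zop1 and 2.53 in prp31. Clock, glucosinolate, flavonoid and cell cycle lists had medians of -0.01, 0.01, 0.15 and 0.10, with CYP71A13 the 1 gene past the rule. Heat shock genes had a median of -0.13 over 17, and HSP17.6II was higher, at 0.4896 FPKM in wild type, 3.26 in sta1, 2.57 in zop1 and 2.32 in prp31. Among seed genes the cruciferins CRA1 and CRC were lower (6.14 and 5.37 FPKM in wild type, 1.47 and 0.229 FPKM in sta1), while EM6 was higher (2.05 and 5.33 FPKM). CAT3, a catalase, was at 479 FPKM in wild type, 217 in sta1, 253 in zop1 and 442 in prp31.

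Genes without introns made up a larger share of those past the rule than of those tested. Of the 18362 long protein-coding genes 14.8% have no annotated intron, but 35.1% of the higher and 45.9% of the lower genes have none. The share past the rule was 0.957% higher and 2.69% lower in intronless genes, and 0.169% and 0.443% in genes with 5 to 9 introns. The median difference changed little, from -0.10 with no intron to -0.04 with 5 to 9 and -0.10 with 20 or more. The spread narrowed, with an SD of 0.43 in intronless genes and 0.25 in genes with 5 to 9 introns. Within a range of 10 to 50 FPKM, 3.57% of 841 intronless genes and 0.490% of 6530 others were lower. The shares were 2.29% and 0.612% at 1 to 10 FPKM, and 2.33% and 0.533% at 50 FPKM or more. Intronless genes are also short, and among genes with transcripts of 500 nt to under 1000 nt 1.07% were higher and 2.26% lower. The part of length was not tested.

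**Figure D5:**
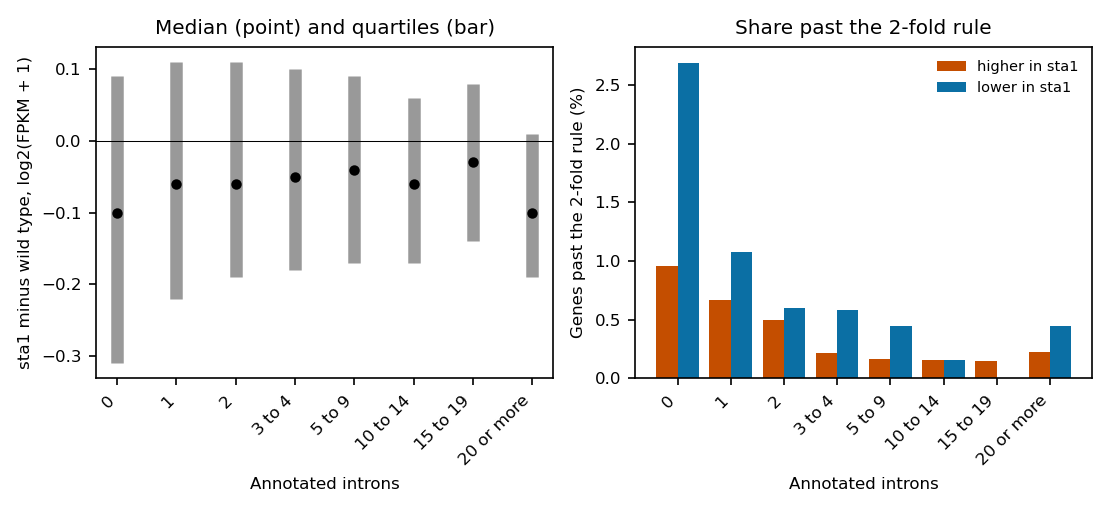
Long protein-coding genes by number of annotated introns. Left, median (point) and quartiles (bar) of the difference of sta1 from wild type in log2(FPKM + 1); right, percentage of genes higher (orange) and lower (blue) by the 2-fold rule, which is 2.69% lower with no intron and 0.443% with 5 to 9.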

How the data were processed

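RNA was measured in 1 seedling library per genotype. The authors deposited FPKM per locus; per the submitters' processing notes, TopHat2 2.0.12, Bowtie, Cufflinks 2.0.1, Cuffdiff and the build TAIR10 were used. RNA was enriched with oligo(dT), per the labels' protocols. Differences were computed as log2(FPKM + 1) with a pseudocount of 1 FPKM, a minimum mean of 1 FPKM over 4 libraries and a 2-fold rule, in Python 3.11.15 with pandas 2.3.3, numpy 2.4.6 and scipy 1.17.1. Whole reads were recovered from FPKM steps for 16269 of 24606 loci (66.1%, tolerance 0.02 reads), a step tested on simulated data; a count test with 1 library a group was not run. FPKM estimates at low levels, at overlapping genes and at near copies depend on how the authors' tools divided reads.

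Genes named are the 15 largest differences each way, the 10 with the largest margins from the other libraries each way, and list and family members past the rule or with the largest difference; other named genes were chosen after their values were seen. The members and lists were chosen with earlier results of these data known. Of 33 lists, 3 (microRNA targets, copper homeostasis, root hair wall genes) were added after values were seen, and the patterns for late embryogenesis abundant and AP2/ERF families, among 53 families, were corrected after the files were opened. Gene names, introns and sequences are from RefSeq (TAIR10.1).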

Additional observations from a re-analysis of the deposited data

How the results depend on the processing

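The counts depend on the pseudocount and threshold. For long protein-coding genes (74 higher, 159 lower), a pseudocount of 0.1 FPKM gave 137 and 298, a pseudocount of 5 FPKM gave 26 and 60, and a difference of at least 1.5 gave 28 and 41. A mean of at least 5 FPKM gave 42 higher genes, and the zop1 library in place of the wild type gave 73 lower ones. Of the 65 higher and 73 lower genes against zop1, 16 and 23 were also called against the wild type, and of the 60 and 131 against prp31, 31 and 68 were. For all loci (152 higher, 229 lower) the same settings gave 232 and 387, 79 and 101, and 81 and 88, with 92 and 147 at a mean of at least 5 FPKM and 139 lower against zop1. Median-of-ratios scaling moved the median of long protein-coding genes by 0.06, to -0.00, and gave 83 higher and 129 lower genes, so that the share of calls that were higher went from 31.8% to 39.2%. Of 94 medians of lists, families and intron groups under 5 settings (470 values), 437 stayed within 0.1 of the reported value and 32 moved by more. The 1 counted as reversed was seed storage and embryo markers, 0.55, which became -0.31 at a mean of at least 5 FPKM. A reversal was counted only for reported medians of at least 0.1 in size. Smaller medians could change sign, such as the circadian clock list, from -0.01 to 0.05 with median-of-ratios scaling. Among medians that moved by more than 0.1, those that changed by over 1.5 times with a pseudocount of 5 FPKM were those of receptor kinases (-0.58 to -0.24), touch (-0.60 to -0.39), salicylic acid (-0.35 to -0.21), phosphate starvation (0.42 to 0.20), cysteine-rich receptor kinases (-0.36 to -0.17), defensin-like genes (0.34 to 0.14) and seed markers (0.55 to 0.25). Some medians nearer to zero changed by as large a factor while staying within 0.1, such as DNA damage (0.12 to 0.06), DNA methylation and silencing (-0.14 to -0.07) and auxin (-0.19 to -0.11). With no filter on low values, AP2/ERF genes went from -0.31 to -0.16, lipid-transfer genes from -0.33 to -0.16 and DNA damage genes from 0.12 to 0.22. At a mean of at least 5 FPKM, iron transcription factors went from 0.34 to 0.54 and phosphate starvation genes from 0.42 to 0.24. The causes were not tested. No paired analysis was possible because each genotype has 1 library. With no replicates, differences between these genotypes cannot be told apart from differences between these libraries, and depth limits low genes.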
